A study of Mus musculus with 37 samples.

Results

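The mitochondrial carriers of the SLC25 family were followed across brown adipose tissue (BAT) of BXD mice. The members were every gene whose array symbol begins with Slc25a, with *Ucp2* and *Ucp3* added, and each was read from its brightest probe set over the BXD arrays. This gave 46 genes on 47 probe sets, out of 24657 named genes and 41155 probe sets. *Slc25a3* alone had 2 probe sets, with means of 12.93 and 9.04, and the brighter was kept. *Ucp1*, which belongs to the same protein family, was kept apart as the reference of the tissue.

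The study compared strains that differ in spontaneous movement, and the BAT arrays belong to its chow-fed males. There were 35 BXD strains, recombinant inbred lines that each carry a fixed mixture of C57BL/6J and DBA/2J alleles, and both parental strains. Each strain gave 1 Affymetrix MoGene 2.0 array of RNA pooled evenly from about 5 mice, which had eaten chow (Harlan 2018) for life, were killed at 29 weeks after a fast from evening to morning, and were perfused through the heart. No strain was treated and none was arrayed more than once. The spread below therefore holds differences between strains together with error of pool and array, and these cannot be told apart. Before deposit the values of each array had been set to mean 8 and SD 2, and all levels and differences are given in these rescaled units.

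Carriers of this family sit in the inner mitochondrial membrane, where each one exchanges or admits particular solutes such as nucleotides, phosphate, carboxylic acids, amino acids, cofactors or iron. Brown adipocytes are packed with mitochondria, burn fatty acids to make heat through UCP1, and also synthesise fat from citrate that leaves the mitochondrion. Some carriers have tissue forms, so that the ADP/ATP carrier of skeletal muscle and the one of most other tissues come from different genes.

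Stretches upstream of the annotated start are given for 3 carriers on which the results turn, since *Slc25a1*, *Slc25a12* and *Ucp2* had the largest ranges among carriers above background. They come from RefSeq (GRCm38.p6), cover 250 bases before the start, and are written 5′ to 3′ on the strand of the gene. Capitals mark the E box CACGTG, the CCAAT box, the GC box GGGCGG and the E box CAGCTG known from muscle genes, each on either strand.
Slc25a1 (chr16:17928220-17928469, - strand): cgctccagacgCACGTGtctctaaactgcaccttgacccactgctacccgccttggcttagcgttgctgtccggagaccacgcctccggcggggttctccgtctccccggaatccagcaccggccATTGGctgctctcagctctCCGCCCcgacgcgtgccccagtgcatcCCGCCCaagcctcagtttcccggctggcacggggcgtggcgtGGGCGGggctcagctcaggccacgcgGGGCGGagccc
Slc25a12 (chr2:71367756-71368005, - strand): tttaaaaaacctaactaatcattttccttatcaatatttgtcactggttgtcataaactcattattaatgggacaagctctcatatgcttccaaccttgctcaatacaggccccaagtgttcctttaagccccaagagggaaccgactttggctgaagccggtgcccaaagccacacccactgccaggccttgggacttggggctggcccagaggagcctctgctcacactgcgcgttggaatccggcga
Ucp2 (chr7:100493108-100493357, + strand): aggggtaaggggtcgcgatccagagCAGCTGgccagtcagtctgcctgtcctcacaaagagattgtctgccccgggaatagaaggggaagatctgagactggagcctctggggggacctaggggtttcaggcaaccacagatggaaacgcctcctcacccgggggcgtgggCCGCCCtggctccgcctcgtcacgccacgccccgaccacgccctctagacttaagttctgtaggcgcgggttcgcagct
The *Slc25a1* stretch held 1 CACGTG, 1 CCAAT and 4 GGGCGG, while the stretch of *Ucp2* held 1 CAGCTG and 1 GGGCGG. None of these letters occurred in the stretch of *Slc25a12*. Of all 32851 RefSeq windows of this length, CACGTG was in 6.02%, CCAAT in 33.8%, GGGCGG in 32.7% and CAGCTG in 13.001%. RefSeq windows were at hand for 36 carriers. Of their 45 windows, 8 held CACGTG, 20 CCAAT, 31 GGGCGG and 4 CAGCTG. Counted by carrier, 7, 17, 25 and 4 held these letters in at least 1 window.

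The tissue was checked first. *Ucp1* ran from 14.82 to 15.69 over the BXD strains with a mean of 15.37. Of 13 genes listed for brown fat or for fat in general (*Fabp4*, *Adipoq* and *Plin1*), 12 lay above background, the exception being *Lhx8*. Background was the 95th percentile of the means of 1128 olfactory receptor probe sets, 7.94 units. Scores were formed as the mean of marker genes for 7 signals. The skeletal muscle score ran from 9.51 in BXD65 to 13.34 in BXD97, with all 13 genes above background, so muscle transcripts were measured in every array and at levels that differed between strains. Liver genes stood high in BXD70 (score 11.51, against 8.20 in the next strain, BXD66) and in DBA/2J (10.07), and 15 of 16 liver genes were highest in BXD70 among the BXD strains. The macrophage score ran from 8.95 in BXD48 to 10.61 in BXD61, with 9 of 10 genes above background, while 3 of 12 lymphocyte genes reached background. In these bulk samples fewer cells of a type and less RNA per cell cannot be told apart.

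Of the 46 carriers, 38 lay above background (82.6%), against 54.8% of all named genes. The brightest was *Slc25a5*, the ADP/ATP carrier of most tissues, which ran from 13.73 in BXD80 over a median of 14.08 to 14.29 in BXD89. *Slc25a1*, which exports citrate, had a mean of 13.84, and *Slc25a20*, which brings acylcarnitines in for oxidation, had 13.49. The next were *Slc25a42* (13.26), which moves coenzyme A, *Slc25a11* (13.23), which exchanges oxoglutarate for malate, *Slc25a39* (13.11), a glutathione carrier, and *Slc25a3* (12.93), the phosphate carrier. *Slc25a35* (12.89), a carrier of unsettled substrate, *Slc25a46* (12.34), an outer membrane member, and *Slc25a23* (12.33), an ATP-Mg/phosphate carrier, closed the first 10. All 10 were past the 97th percentile of probe sets by mean level, from 97.4 to 99.5, and below *Ucp1*. Probe sets differ in how well they hybridise, so this order is one of array signal and not of molecules.

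Some neighbours in the order lay close together beside their spread over strains, and their gaps over the same arrays were not tested. *Slc25a42* and *Slc25a11* lay 0.04 units apart, with SDs over strains of 0.29 and 0.14. The gap between *Slc25a5* and *Slc25a1* was 0.24 units beside an SD of 0.40 for *Slc25a1*. The brain, testis and erythroid forms were lower: *Slc25a37* (mitoferrin of red cell precursors) had a mean of 9.46, *Slc25a38* (glycine) 9.15 and *Slc25a27* (UCP4, a brain form) 8.66. *Slc25a18*, a glutamate carrier, had 7.87 and *Slc25a31*, the ADP/ATP carrier of testis, had 7.50, both below background. The other 6 below background were *Slc25a14*, *Slc25a41*, *Slc25a13*, *Slc25a2*, *Slc25a43* and *Slc25a21*.

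**Figure D1:**
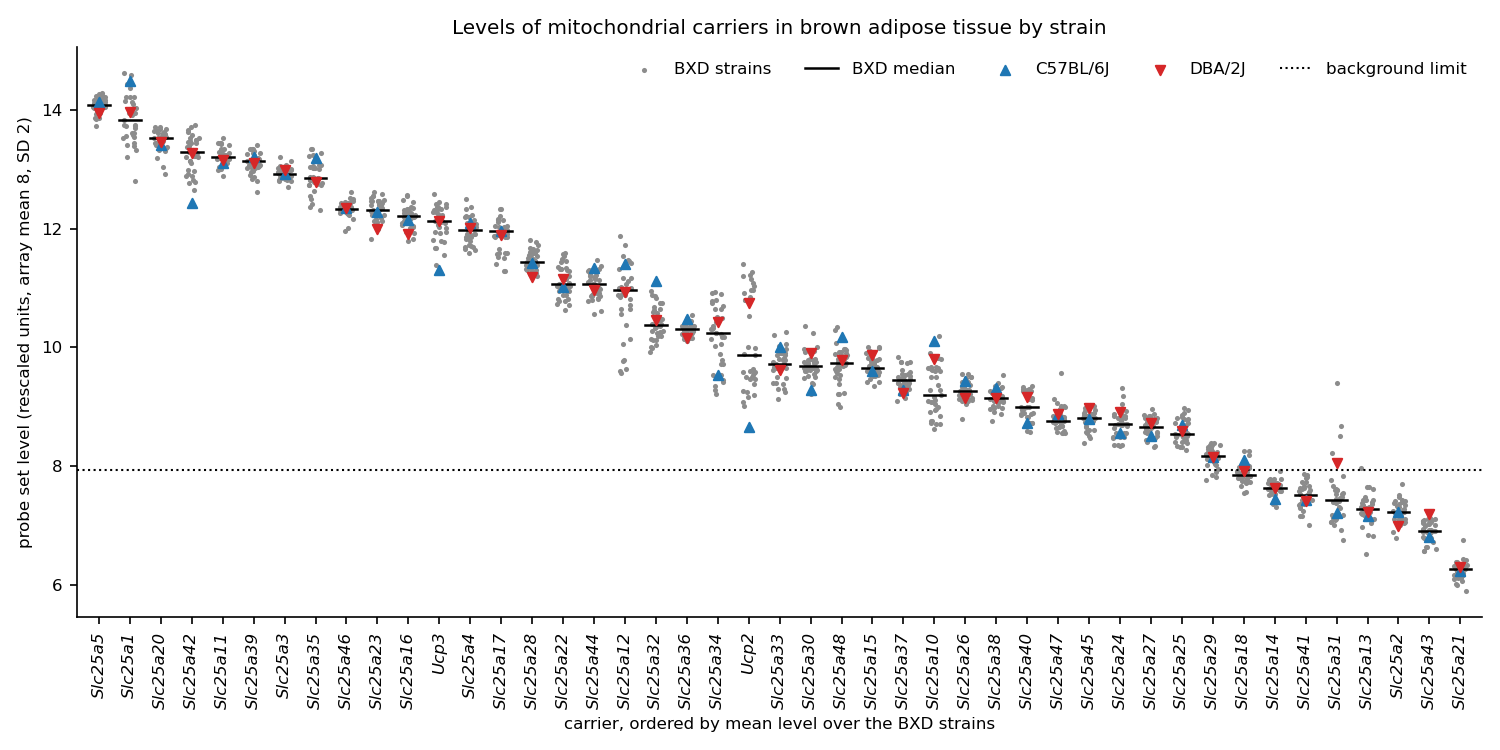
Probe set level (rescaled units) of 45 of the 46 carriers, ordered by mean. Grey points are the 35 BXD strains, black bars their median, triangles the parents, and the dotted line the background limit of 7.94; *Slc25a12*, *Slc25a34* and *Ucp2* spread widely in the middle of the order, and C57BL/6J lies under the BXD points for *Slc25a42*, *Ucp3* and *Ucp2*.

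The spread over strains was then compared. The median range (highest minus lowest BXD strain) was 0.82 units over the carriers, beside 0.83 over all probe sets above background. A range of at least 1 unit was found for 16 carriers (34.8%), beside 35.2% of the probe sets above background. The bases are unlike, since the carriers include 8 below background and enter with 1 probe set each. Among the 16 were the dim *Slc25a31* and *Slc25a13*, with ranges of 2.64 and 1.45. On these bases the family as a whole spread about as much as the probe sets above background. *Slc25a36*, a pyrimidine nucleotide carrier, spread least at 0.44 units, followed by *Slc25a3* at 0.51, and 3 of the 10 brightest carriers had a range of at least 1 unit.

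The widest range belonged to *Slc25a31*, 2.64 units, and rested on a dim probe set: its median was 7.43, and BXD95 at 9.39 stood 0.72 units beyond the next strain, BXD48 at 8.67. Leaving out its highest and lowest strain brought the range to 1.75. *Ucp2*, an uncoupling protein known from fat, spleen and macrophages, ran from 9.02 in BXD101 over a median of 9.86 to 11.41 in BXD81, a range of 2.39. Only 3.17% of the probe sets above background had a range as wide.

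*Slc25a12*, the aspartate/glutamate carrier of muscle and brain, ran from 9.57 in BXD95 over a median of 10.97 to 11.88 in BXD97, a range of 2.31. *Slc25a1* ran from 12.80 in BXD85 over 13.83 to 14.63 in BXD45, and BXD85 lay 0.41 units below the next strain. *Slc25a34*, of unsettled substrate, ran from 9.21 in BXD68 over 10.24 to 10.94 in BXD48. No other end strain of these 3 carriers lay more than 0.16 units from its neighbour. *Slc25a10*, the dicarboxylate carrier, ran from 8.63 in BXD83 over 9.20 to 10.19 in BXD56. The ranges of the rest of the first 10 were 1.45 for *Slc25a13*, 1.36 for *Slc25a48*, 1.196 for *Ucp3* and 1.15 for *Slc25a30*. Some strains recurred at the ends: BXD61 was the lowest strain for 7 carriers and BXD80 for 4, and BXD90 and BXD95 were each the highest for 4. The same counts over all probe sets were not made, so this recurrence cannot be read as a trait of the carriers.

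Each carrier was then set against the 7 scores over the 35 BXD strains with limma, adjusting over all 41155 probe sets and calling an adjusted p under 0.05. A slope is the change of a carrier in rescaled units per SD of the score. In all, 16 carriers (34.8%) were called with at least 1 score, against 8.95% of all probe sets, and 30 with none. Shares of all probe sets, here and below, include dim ones: 47.2% of all probe sets lay above background, against 82.6% of the carriers. The bases are therefore unlike, and shares over probe sets above background are not given for the scores. *Slc25a4*, *Slc25a44* and *Slc25a46* were each called with 2 scores.

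**Figure D2:**
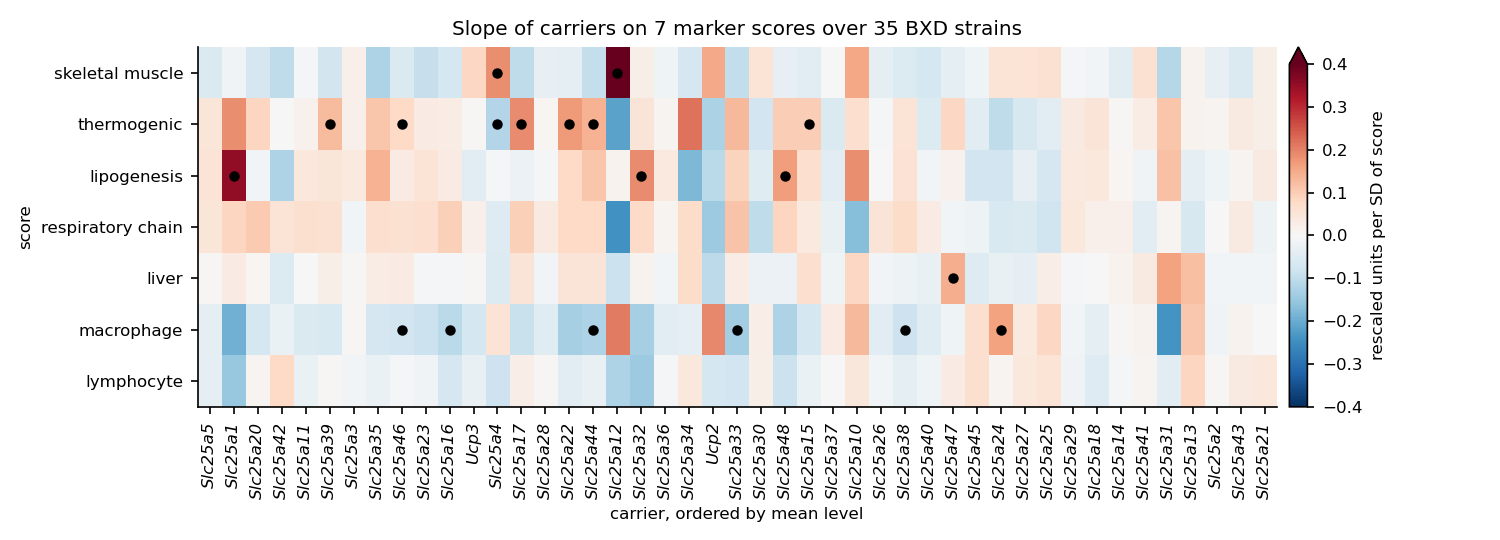
Slope of 45 carriers (columns, ordered by mean level) on the 7 scores (rows), in rescaled units per SD of the score over 35 BXD strains, with black dots where the adjusted p was under 0.05. The colour scale ends at 0.4 in size, which the 0.59 of *Slc25a12* on muscle exceeds; most dots lie in the thermogenic and macrophage rows and none in the respiratory chain and lymphocyte rows.

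Muscle signal was followed by 2 carriers. *Slc25a12* rose by 0.59 ± 0.03 (SE, n = 35) per SD of the skeletal muscle score (limma adjusted p = 8.12e-19). *Slc25a4*, the ADP/ATP carrier of heart and skeletal muscle, rose by 0.19 ± 0.02 (limma adjusted p = 7.91e-08), and ran from 11.59 in BXD65 over 11.97 to 12.50 in BXD97. These are also the strains with the least and the most muscle signal. Both are muscle forms by textbook knowledge, and the other member of that list, *Ucp3*, had a slope of 0.08 ± 0.04 (limma adjusted p = 0.51). The 2 risers were 4.35% of the carriers, against 1.56% of all probe sets, and no carrier was called as falling, against 0.313%. Before adjustment 16 carriers (34.8%) had a limma p under 0.05, against 10.9% of all probe sets, and 31 of the 46 slopes were below 0. With the muscle score regressed out, the range of *Slc25a12* shrank from 2.31 to 0.83 units. Among the partners of *Slc25a12* in the malate-aspartate shuttle, *Got2* (0.44 ± 0.03) and *Got1* (0.41 ± 0.04), the aspartate aminotransferases, rose with muscle (limma adjusted p = 2.18e-14 and 8.39e-11), while *Mdh1* and *Mdh2* did not pass. *Dbt*, a gene of branched-chain oxidation, fell with muscle by 0.16 ± 0.03 (limma adjusted p = 0.0011).

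Fat synthesis signal was followed by the citrate exporter and 2 further carriers. *Slc25a1* rose by 0.36 ± 0.03 per SD of the lipogenesis score, the mean of 9 genes from *Fasn* to *Srebf1* of which it is no member (limma adjusted p = 1.28e-09, n = 35). The closest transcripts to *Slc25a1* over the strains were *Acaca* (r = 0.92), *Tkt* (0.90) and *Elovl6* (0.89), of which *Acaca* and *Elovl6* belong to the score. *Slc25a32*, a folate and FAD carrier, rose by 0.19 ± 0.03 (limma adjusted p = 0.0019), and *Slc25a48* by 0.17 ± 0.04 (limma adjusted p = 0.047). Without BXD61, which was the lowest strain for *Slc25a48*, its slope was 0.14 (limma adjusted p = 0.11). The 3 risers were 6.52% of the carriers, against 0.838% of all probe sets, and none fell, against 0.445%. Of the partner genes, *Gpd1*, *Gpd2*, *Mdh1* and *Letm1* rose with the score and *Cpt1a*, the entry step of fatty acid oxidation, fell by 0.18 ± 0.03 (limma adjusted p = 0.0025).

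The thermogenic score, the mean of 8 genes with *Ucp1* among them, was followed by 7 carriers. Its genes were not scaled before averaging, so those with a wide spread weighed most. *Elovl3* and *Dio2* had SDs over strains of 1.19 and 0.84, against 0.23 for *Ucp1* and 0.11 for *Cidea*. The 6 risers were 13.04% of the carriers, against 1.44% of all probe sets, and the 1 that fell was 2.17%, against 0.979%. *Slc25a39* rose by 0.13 ± 0.02 (limma adjusted p = 5.49e-04) and ran from 12.63 in BXD97, the strain with the lowest score, over 13.14 to 13.41 in BXD51. *Slc25a17*, a carrier of coenzyme A and other nucleotides in peroxisomes, rose by 0.19 ± 0.03 (limma adjusted p = 0.0011), with BXD69 and BXD97 lowest at 11.29 and BXD87 and BXD90 highest at 12.34. The glutamate carrier *Slc25a22* rose by 0.17 ± 0.04 and the branched-chain amino acid carrier *Slc25a44* by 0.14 ± 0.03 (limma adjusted p = 0.005 for both).

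*Slc25a46* rose by 0.08 ± 0.02 and *Slc25a15*, the ornithine carrier, by 0.10 ± 0.03 (limma adjusted p = 0.012 and 0.026). *Slc25a4* fell by 0.12 ± 0.03 (limma adjusted p = 0.046), and with the muscle score in the same fit its slope was -0.07 (limma adjusted p = 0.086). Without BXD70, *Slc25a15* and *Slc25a4* had limma adjusted p of 0.065 and 0.074. *Slc25a15* also lost its call with the muscle score in the same fit (limma adjusted p = 0.052) and without the 2 farthest strains, BXD87 and BXD70 (0.16). The scores themselves moved together to some degree. Over the 35 strains the thermogenic score had r of 0.48 with lipogenesis, 0.41 with liver, -0.40 with macrophage and -0.30 with muscle. The r largest in size, -0.55, was between respiratory chain and macrophage. In a fit with all 7 scores, chosen after the data had been seen, *Slc25a17* (0.26 ± 0.03, limma adjusted p = 3.52e-04) and *Slc25a39* (0.13 ± 0.03, 0.024) still passed, and *Slc25a34* joined them.

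*Slc25a34* had slopes of opposite sign on 2 scores that were positively correlated. On the scores singly its slopes were 0.22 ± 0.08 on thermogenic and -0.18 ± 0.08 on lipogenesis (limma adjusted p = 0.14 and 0.36). In the fit with all 7 scores they were 0.44 on thermogenic (limma adjusted p = 0.0046) and -0.43 on lipogenesis (0.0013). *Slc25a10* had a slope of 0.29 on lipogenesis there (limma adjusted p = 0.0046), against 0.19 ± 0.06 singly (0.14). *Slc25a17* fell with lipogenesis in that fit, by 0.17 (limma adjusted p = 0.0044). *Slc25a1* still passed there with lipogenesis (limma adjusted p = 2.25e-05), while *Slc25a32* and *Slc25a48* no longer did (0.082 and 0.59).

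Of the 5 carriers known for a role in brown fat, *Slc25a44* passed with the thermogenic score. *Slc25a20* had a slope of 0.09 ± 0.03 and *Slc25a1* of 0.19 ± 0.06 on it (limma adjusted p = 0.096 and 0.088), and both passed when dim probe sets were left out (0.048 and 0.046). *Slc25a25*, an ATP-Mg/phosphate carrier, and *Slc25a28*, mitoferrin 2, did not pass with any score. Of 31 partner genes found on the array, 8 rose with the thermogenic score and none fell, against 1.44% and 0.979% of all probe sets. They were *Cpt2* of the carnitine route, *Gpd1* and *Gpd2* of the glycerophosphate shuttle, *Dbt* of branched-chain oxidation, *Mtch2* of the outer membrane, and *Letm1*, *Sfxn5* and *Mpc2* (listed as *Brp44*) of the inner membrane. *Letm1*, an ion exchanger, had a slope of 0.18 ± 0.02 (limma adjusted p = 1.02e-05).

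**Figure D3:**
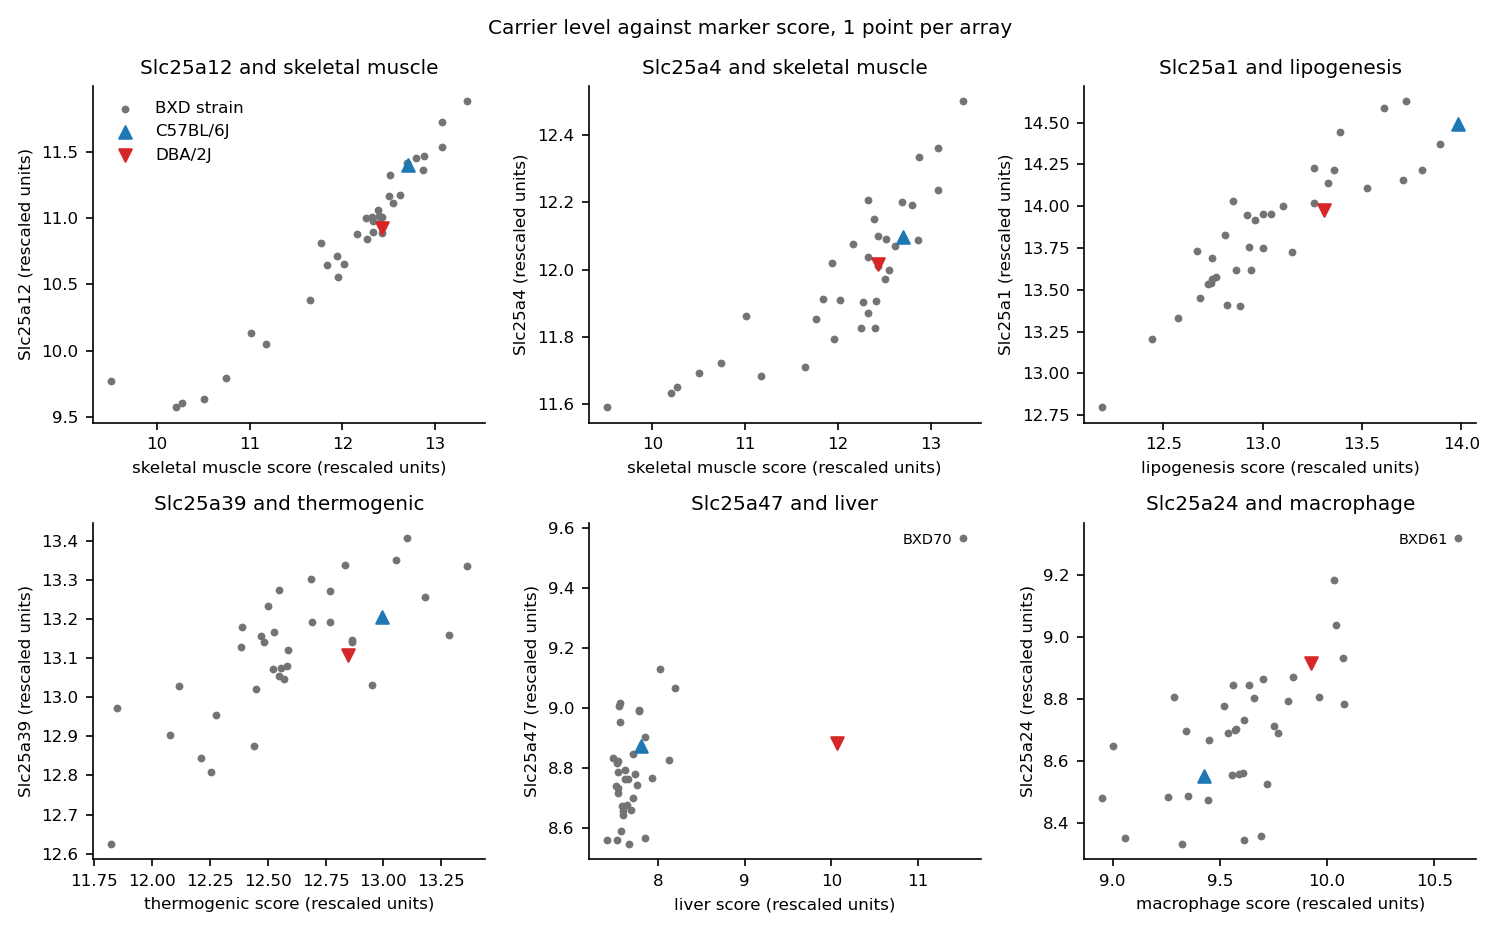
Level of 6 carriers against the score each followed, both in rescaled units, with 1 point per array; grey points are BXD strains and triangles the parents, which were not in the fits. *Slc25a12*, *Slc25a4*, *Slc25a1* and *Slc25a39* climb along the whole of the score, while the slope of *Slc25a47* rests on BXD70, and BXD61 ends the series of *Slc25a24*.

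Liver signal touched 1 carrier in the fit and rested on a single strain. *Slc25a47*, a carrier found mainly in liver, ran from 8.55 in BXD84 over a median of 8.77 to 9.57 in BXD70, 0.44 units above the next strain. Its slope on the liver score was 0.14 ± 0.03 (limma adjusted p = 3.74e-04), and 0.06 ± 0.03 without BXD70 (0.58). The 1 riser was 2.17% of the carriers, against 0.629% of all probe sets, and none fell, against 0.0437%. *Slc25a13*, the liver form of the aspartate/glutamate carrier, and *Slc25a15* were also highest in BXD70, at 7.97 and 10.002, with slopes of 0.12 ± 0.04 and 0.07 ± 0.03 (limma adjusted p = 0.27 and 0.61). *Slc25a10* had 9.82 in BXD70 and a slope of 0.08 ± 0.07 (limma adjusted p = 0.92). In DBA/2J, whose liver score was 10.07, *Slc25a47* stood at 8.89 and *Slc25a13* at 7.23, both within the range of the other BXD strains.

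With the macrophage score, 1 carrier rose and 5 fell, 2.17% and 10.9% of the family, against 2.42% and 1.31% of all probe sets. *Slc25a24*, an ATP-Mg/phosphate carrier, rose by 0.16 ± 0.03 (limma adjusted p = 3.17e-04) and ran from 8.33 in BXD89 over 8.70 to 9.32 in BXD61. *Slc25a33*, a pyrimidine nucleotide carrier, fell by 0.14 ± 0.04, *Slc25a44* by 0.12 ± 0.03, *Slc25a16* by 0.11 ± 0.03, *Slc25a38* by 0.08 ± 0.02 and *Slc25a46* by 0.08 ± 0.02 (limma adjusted p = 0.032, 0.015, 0.009, 0.043 and 0.012). BXD61, with the most macrophage signal, was the lowest strain for *Slc25a16* and *Slc25a44*. Without BXD61, chosen after the data had been seen, *Slc25a24* (0.12, limma adjusted p = 0.011) and *Slc25a46* (-0.08, 0.012) still passed, the other 4 had adjusted p from 0.08 to 0.12, and *Slc25a31* was called in addition (0.023). With the muscle score in the same fit, *Slc25a44*, *Slc25a33* and *Slc25a38* no longer passed (limma adjusted p = 0.051, 0.092 and 0.11), and with the other 6 scores only *Slc25a24* did (0.012). *Sfxn3* rose and *Sfxn1* and *Dld* fell with this score among the partner genes.

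The respiratory chain score, a mean over genes, had an SD of 0.07 units over strains. Its single genes had SDs from 0.06 (*Atp5b*) to 0.23 (*Cox5b*, below background). No carrier was called by limma with this score, which called 0.0948% of all probe sets up and 0.0170% down. Before adjustment 17 carriers (37.0%) had p under 0.05 there, against 9.29% of all probe sets. *Slc25a20* and *Slc25a16* each had a slope of 0.10 ± 0.03 (limma adjusted p = 0.12 and 0.16), and both passed when each array was centred on its median. Among the partner genes, *Dld* rose with the respiratory chain score by 0.12 ± 0.02 (limma adjusted p = 0.0052). With the lymphocyte score none was called by limma either, against 0.238% of all probe sets up and 0.0340% down. Before adjustment 6 carriers (13.04%) had p under 0.05, near the 12.8% of all probe sets.

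No pair of carriers of like substrate was called. In 10 pairs tested over the 35 strains with 100000 permutations (two-sided) and adjusted over the pairs, 1 pair had an unadjusted p under 0.05 and none an adjusted one. The lowest belonged to the ATP-Mg/phosphate carriers *Slc25a23* and *Slc25a24* (r = -0.38, permutation p = 0.024, adjusted 0.24; rho = -0.17, permutation p = 0.34, adjusted 0.57), and without the 2 strains farthest from the median of *Slc25a23* the r was -0.05. For the ADP/ATP carriers *Slc25a4* and *Slc25a5*, r was -0.29 and rho -0.32 (permutation p = 0.086 and 0.063, adjusted 0.28 and 0.46), and r was 0.14 with the muscle score regressed out. For the aspartate/glutamate carriers *Slc25a12* and *Slc25a13*, r was 0.02 and rho 0.08 (permutation p = 0.91 and 0.64, adjusted 0.91 and 0.80). *Slc25a1* and *Slc25a10* gave r = 0.27 and rho = 0.20 (permutation p = 0.12 and 0.25, adjusted 0.30 and 0.57). Over the 10 pairs r lay between -0.38 and 0.30.

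The parents were 1 array each, so their differences have no test. Of the carriers, 6 were at least 0.5 units higher in DBA/2J and 2 at least 0.5 units lower, against 6.00% and 6.96% of all probe sets. *Ucp2* was 8.66 in C57BL/6J and 10.75 in DBA/2J, a difference of 2.09 that 0.396% of all probe sets matched or exceeded in size. *Slc25a34* was 0.89 higher in DBA/2J, the dim *Slc25a31* 0.85, *Slc25a42* 0.84, *Ucp3* 0.84 and *Slc25a30* 0.62. *Slc25a32* was 0.65 lower and *Slc25a1* 0.51 lower in DBA/2J. C57BL/6J lay outside the range of all BXD strains for *Slc25a42* (12.43, against a lowest strain of 12.66), *Ucp3* (11.30, against 11.39), *Ucp2* (8.66, against 9.02) and *Slc25a32* (11.12, against a highest of 10.95). DBA/2J lay outside that range for *Slc25a28* (11.194, against a lowest strain of 11.205) and the dim *Slc25a43* (7.20, against a highest of 7.12). The lipogenesis score was also higher in C57BL/6J than in any BXD strain, at 13.98 against 13.89, and its part in the *Slc25a1* and *Slc25a32* differences was not tested. The macrophage score was 9.43 in C57BL/6J and 9.93 in DBA/2J, beside an SD of 0.33 over the BXD strains, and the liver score 7.81 and 10.07. The part of either signal in the *Ucp2* and other parental differences was not tested.

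**Figure D4:**
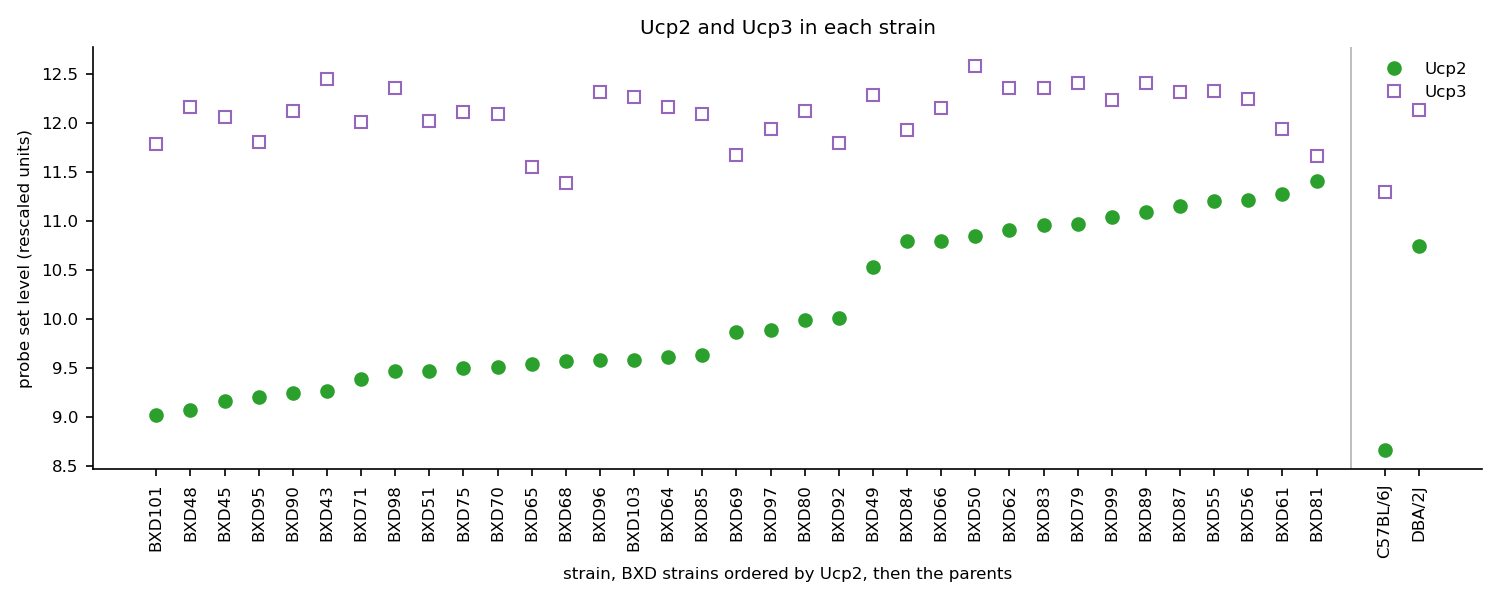
Level of *Ucp2* (filled circles) and *Ucp3* (open squares) in rescaled units for each BXD strain, ordered by *Ucp2*, and for both parents at the right. *Ucp2* climbs to 10.01 over 21 strains and starts again at 10.53 for the other 14, with C57BL/6J at 8.66 and DBA/2J at 10.75, and *Ucp3* shows no such step.

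The ordered values of *Ucp2* over the BXD strains had their largest step, 0.53 units, between BXD92 at 10.01 and BXD49 at 10.53, which left 21 strains below and 14 above. The next largest step was 0.26. No score was called for *Ucp2*, and its largest slope was 0.19 ± 0.13, on the macrophage score (limma adjusted p = 0.52). *Ucp3*, a relative known from muscle and brown fat that neighbours *Ucp2* on chromosome 7, ran from 11.39 in BXD68 over 12.13 to 12.58 in BXD50. Between both, r was 0.30 and rho 0.27 (permutation p = 0.082 and 0.11, adjusted 0.28 and 0.46), and r was 0.46 without the 2 strains farthest from the median of *Ucp2* (permutation adjusted p = 0.067).

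The 20 transcripts closest to *Ucp2* in size of r over the 35 strains all came from chromosome 7. That chromosome holds 8.71% of the placed probe sets, the median carrier had 1 of its 20 closest on its own chromosome, and 0.482% of all placed probe sets had 20. This count was taken after the values had been seen and no p is given. They were led by *Trim12a* (r = -0.82), *Trim12c* (0.81), *Aqp11* (-0.80), *Gm4980* (-0.79) and *Trim6* (0.78). Of these, *Trim12a*, *Trim12c* and *Trim6* had means of 7.74, 7.48 and 7.39, below background. Trim genes encode ubiquitin ligases and *Aqp11* an aquaporin. *Ndufc2*, a subunit of complex I, had r = -0.69, and *Pold3*, a DNA polymerase subunit 18 genes away, had r = 0.68. Of the 20, 8 rose with *Ucp2* and 12 fell, and all lay between 105 genes on one side and 317 on the other. Among the 50 closest, 36 were on chromosome 7, and 18 of 20 were once dim probe sets were left out. The strain genotypes were not analysed here, and the part of sequence differences under the probes was not tested.

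**Figure D5:**
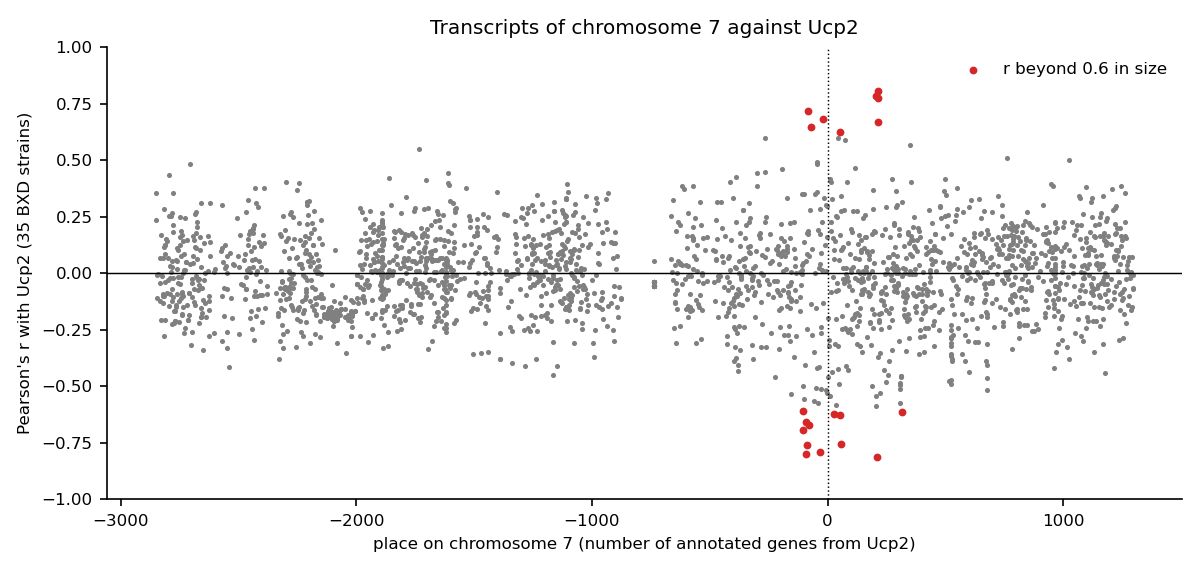
Pearson's r with *Ucp2* over 35 BXD strains (vertical axis) for 2351 probe sets of chromosome 7, against their place counted in annotated genes from *Ucp2* (horizontal axis). The 20 red points beyond 0.6 in size, 8 above 0 and 12 below, all lie from 105 genes on one side of *Ucp2* to 317 on the other.

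Some carriers were among the transcripts closest to another. *Slc25a17* was the transcript closest to *Slc25a34* (r = 0.82), and *Slc25a17* and *Slc25a20* had r = 0.81 over the 35 strains. *Etfdh*, which passes electrons from fatty acid oxidation to ubiquinone, was the closest transcript to both *Slc25a17* (0.87) and *Slc25a20* (0.86). The closest to *Slc25a12* was *Pde4dip* (0.98), followed by the muscle gene *Sgca* (0.98). These r describe 35 arrays that share their muscle and other signals, and carry no p.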

How the data were processed

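The authors deposited 1 table of scores: 41345 probe sets by 37 BAT arrays, each array rescaled by the authors to a mean of 8 and an SD of 2. Affymetrix Expression Console is named in the submitters' processing notes; background correction, log base and build are not given in the sources used here. The 190 array controls were left out. Arrays give no read depth, so precision is limited by their number.

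Members, lists, scores and tests were chosen with earlier results of these data known. Each score was the mean of its genes' brightest probe sets, scaled to an SD of 1 over 35 BXD arrays. Tests used limma 3.58.1 (lmFit, eBayes) in R 4.3.3 with Benjamini-Hochberg adjustment over 41155 probe sets, threshold 0.05; pairs used 100000 permutations. Since strains were arrayed once, p-values rest on the spread over strains, which includes the error of each pool and array. On simulated data for the muscle score, slopes of 1.5, 0.7 and 0.5 SD were recovered in 100%, 43% and 3% of 200 changed probe sets. False calls were 10, 3 and 0. The simulated noise was independent between probe sets, unlike in the arrays, so these rates need not hold for them. Alternatives covered normalization, strains left out, ranks, dim probe sets, probe set means, covariates and thresholds. Full values were given for the 10 highest levels, the 10 largest ranges, the up to 5 largest called slopes per direction, the tissue lists, the pairs, and the carriers that differ between parents by 0.5 units or more. The counts include 1 carrier whose values are not given here. Closest transcripts beyond this rule were named after their values were seen. Gene order came from RefSeq (GRCm38.p6), by which 26993 of 28392 named probe sets were placed.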

Additional observations from a re-analysis of the deposited data

How the results depend on the processing

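The 19 called slopes had 226 values under other settings, all of the same sign, of which 182 stayed past the threshold and 44 lost it. The stricter threshold and the removal of dim probe sets leave the slope itself unchanged, so the sign could not differ there. Of 3536 values of the slopes not called, 39 passed under another setting, from 22 different slopes. The count for muscle was 4 in place of 2 with the 2 farthest strains left out, with ranks and with dim probe sets left out. Every carrier added there fell with the muscle score. Among them were *Slc25a23* with ranks (-0.11, limma adjusted p = 0.0087) and, without the 2 farthest strains, *Slc25a20* and *Slc25a16* (both -0.10, limma adjusted p = 0.045 and 0.038). For thermogenic it was 4 in place of 7 at an adjusted p under 0.01 and 3 with the other 6 scores as covariates. For liver it was 0 in place of 1 without BXD70, without the 2 farthest strains (BXD70 and BXD66) and with ranks. For lipogenesis it was 7 in place of 3 with both parents, and 5 with dim probe sets left out or with muscle as a covariate. For the respiratory chain it was 3 in place of 0 on centred arrays. For macrophage it was 2 in place of 6 at an adjusted p under 0.01 and without the 2 farthest strains (BXD61 and BXD48), 3 without BXD61, 1 with the other 6 scores and 10 with dim probe sets left out. The covariate fits and the fit without BXD61 were chosen after seeing the data, apart from the muscle covariate. With both end strains of each carrier left out, 8 carriers in place of 16 had a range of at least 1 unit. At the 99th percentile of the olfactory receptors 32 carriers in place of 38 lay above background. No pair was called under any setting. Fewer probe sets tested make the adjustment milder where dim ones are left out; the cause was not tested for the others. No paired analysis was possible because each strain has 1 array. Carriers below background carry little signal, so their lack of calls says little.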
